A study of Mus musculus with 52 samples.

Results

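The interferon regulatory factors (IRFs) are transcription factors that share an N-terminal DNA-binding domain and bind interferon-stimulated response elements. The 8 genes described here, Irf1, Irf2, Irf3, Irf4, Irf5, Irf7, Irf8 and Irf9, were chosen by name from a table of 27525 genes, and all 8 have a row in it. They were measured by bulk RNA-seq in 32 individual subcutaneous tumors, 8 in each of 4 groups. All tumors grew from KxPxCx cells, hereafter KPC, a mouse pancreatic adenocarcinoma line from genetically engineered animals with Pdx1-Cre. The cells were injected into the flanks of C57BL/6NHsd mice aged 8 to 10 weeks. Untreated tumors received no agent. ADU-S100 tumors received 2 µg of ADU-S100, a cGAMP analog that activates STING, into the tumor on day 0. Anti-LTβR tumors came from mice given 4 intraperitoneal doses of 100 µg of the antibody 4H8, an agonist of the lymphotoxin-β receptor. Combination tumors received both agents at these doses, and every tumor was resected on day 14. The host mice are wild type and keep their own leukocytes, and the tumor cells come from 1 line, so each library mixes tumor, stromal and immune RNA.

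IRF3 and IRF7 carry the signal of STING and of RNA and Toll-like receptor (TLR) sensors to the type I interferon genes once the kinases TBK1 and IKKε have phosphorylated them. IRF9 acts downstream of the type I interferon receptor, and IRF1 is induced by interferon-γ and drives antigen presentation genes, while IRF2 can compete with IRF1 for its sites. IRF5 acts downstream of endosomal TLRs in myeloid cells and B cells, IRF8 is needed for type 1 conventional dendritic cells (cDC1) and for monocyte lineages, and IRF4 is needed for plasma cells, activated T cells and type 2 conventional dendritic cells (cDC2). The design asks how these genes differ among tumors given a STING agonist, an LTβR agonist or both.

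Motifs in the promoters are shown because members of this family are themselves regulated by interferon and NF-κB. Sequences are those of RefSeq on GRCm38.p6, on the strand of the gene, and the 250 bases before each annotated start were searched on both strands for 2 copies of GAAA with any 2 bases between them (the core of an interferon-stimulated response element, ISRE), for TTCNNNGAA (a gamma-activated site, GAS) and for a κB motif. Of 32851 promoters of that length, 2.98% held the ISRE core, 7.02% the GAS letters and 7.25% the κB motif. Irf1 (2 annotated starts), Irf2 and Irf8 (2 annotated starts) each held a match at 1 start. In the lines that follow capitals mark the matched letters, with up to 10 flanking bases in lower case.
Irf1 GAS, chr11:53769914-53769942, plus strand: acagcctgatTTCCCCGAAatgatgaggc
Irf1 κB, chr11:53769991-53770013, plus strand: agtccgggccGGGGAATCCCgct
Irf2 ISRE core, chr8:46739495-46739523, plus strand: tggggaagtGAAAATGAAAttgacttttc
Irf2 GAS, chr8:46739511-46739539, plus strand: aaattgacttTTCCGAGAAatgatgaaag
Irf2 κB, chr8:46739718-46739744, plus strand: cgggggtgggGGGGATTTCCagcctcg
Irf8 GAS, chr8:120736177-120736205, plus strand: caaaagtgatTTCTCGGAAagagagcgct
Irf8 GAS, chr8:120736195-120736223, plus strand: aagagagcgcTTCAGAGAAggcggatttg
Counted from the start, the Irf1 match to the GAS letters lay at −90 to −82, and the Irf8 matches lay at −171 to −163 and −153 to −145. The windows shown for Irf2 ISRE and GAS overlap, as do the pair for Irf8. These letters were not found in the windows of Irf3, Irf4, Irf5, Irf7 and Irf9. The presence of a match was not tested against levels. A match is a description of letters and not a measured binding site.

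The deposited values are normalized counts, in which the reads of a gene are scaled by a size factor of the library, and a normalized count is worth about 1 read. Recovered reads per library ran from 12762453 to 15591986 in the 4 groups. At 14000000 reads or fewer were 7 libraries, of which 1 was untreated and each treated group held 2. Among 112 pairs of libraries of the same group none was a duplicate, since the chi-square per gene ran from 8.26 to 109. Markers of the labelled tissue were present, with a summed level of Krt8, Krt18, Krt19 and Epcam of 15330 to 28517 in untreated and 6703 to 13991 in combination tumors. The leukocyte markers Ptprc, Cd53, Laptm5 and Coro1a summed to 8791 to 12055 in untreated tumors (median 10281), 9308 to 11570 with ADU-S100 (10635), 11222 to 12892 with anti-LTβR (12292) and 10774 to 14339 with the combination (13862). In such bulk samples fewer cells of a type and less RNA per cell cannot be told apart. The labels name separate tumors, and p-values measure the spread between them. Whether some tumors of a group grew in the same mouse is not stated.

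Per kilobase of annotated exon, the members span a wide range of levels. In untreated tumors Irf1 was highest at 1084 ± 124 normalized counts per kb (SD, n = 8), followed by Irf7 at 598 ± 178, Irf9 at 299 ± 23.9, Irf3 at 235 ± 29.1, Irf5 at 203 ± 31.0, Irf8 at 142 ± 15.8, Irf2 at 120.4 ± 6.45 and Irf4 at 21.5 ± 10.7. In this order the tumor ranges of Irf9 and Irf3, of Irf3 and Irf5, and of Irf8 and Irf2 overlapped, and those of the other neighbours did not. With the combination Irf1 still led at 1474 ± 300 per kb and Irf7 followed at 569 ± 145, whereas Irf5 at 278 ± 38.7 and Irf8 at 225 ± 45.2 stood beside Irf9 at 263 ± 26.4 and Irf3 at 209.7 ± 18.8, all 4 with overlapping ranges. Irf4 remained the lowest member at 66.2 ± 21.0 per kb. Exon lengths come from the GENCODE annotation of GRCm38, and every transcript of a gene counts toward its length, so these levels are approximate.

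**Figure D1:**
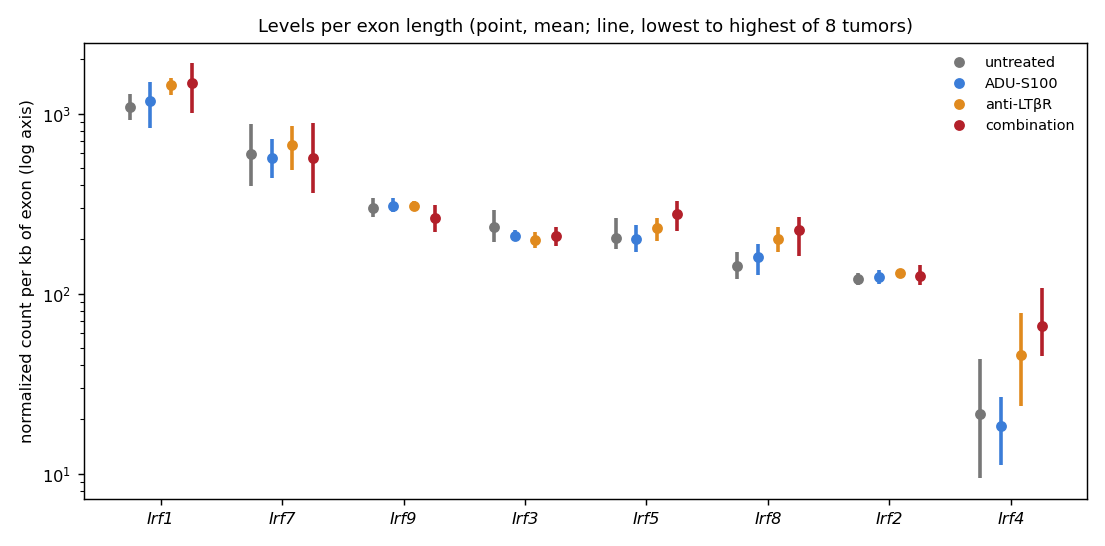
Normalized counts per kb of annotated exon (log axis) for the 8 genes, ordered by their untreated mean. Points are means and lines run from the lowest to the highest of 8 tumors in each group. Irf1 is highest and Irf4 lowest in all 4 groups.

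In combination against untreated tumors Irf4, Irf8, Irf5 and Irf1 were higher and Irf9 was lower, while Irf2, Irf3 and Irf7 did not pass the test. By limma on log2(normalized count + 1), with p-values adjusted over all genes, 5 of 8 members were called at a false discovery rate (FDR) below 0.05, against 43.2% of 16909 genes tested (19.6% higher and 23.6% lower). The median log2 difference of the 8 members was 0.23, beside −0.016 over all genes tested. With the added 2-fold threshold that the study used, 1 member (Irf4) was called, against 6.12% of all genes.

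Irf4 (chr13:30749226-30766976, GRCm38) had the largest difference among the members. Its lowest, median and highest normalized counts were 46.2, 96.1 and 213 in untreated tumors, 55.0, 93.5 and 129.8 with ADU-S100, 116, 232 and 384 with anti-LTβR, and 221, 325 and 527 with the combination. No combination tumor fell to the level of any untreated or ADU-S100 tumor, so the 8 tumors of each group did not overlap, although the gap between the lowest combination and the highest untreated tumor was narrow. Groups did not overlap for 10.7% of genes in combination against untreated tumors and for 12% in combination against ADU-S100 tumors. The level was 3.25-fold higher in combination than in untreated tumors (log2 1.70 ± 0.27 SE, adjusted p = 0.000129) and 2.14-fold higher with anti-LTβR than in untreated tumors (log2 1.09 ± 0.31, adjusted p = 0.0271). Against anti-LTβR alone the combination showed 1.52-fold more Irf4, a difference that missed the threshold (log2 0.61, 95% interval 0.06 to 1.15, adjusted p = 0.0932). Irf4 also varied most within groups among the members, with a coefficient of variation of 50.0% in untreated and 31.7% in combination tumors.

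Irf8 (chr8:120736358-120756694) ran through 848, 1002 and 1203 normalized counts (lowest, median and highest) in untreated tumors, 896, 1170.4 and 1331 with ADU-S100, 1201, 1444 and 1661 with anti-LTβR, and 1146, 1739 and 1867 with the combination. The highest untreated tumor was exceeded by 6 of 8 combination tumors and by 7 of 8 anti-LTβR tumors. The difference from untreated tumors was 1.55-fold for the combination (log2 0.64 ± 0.12 SE, adjusted p = 0.000411) and 1.42-fold for anti-LTβR (log2 0.50 ± 0.08, adjusted p = 0.00113). The combination and anti-LTβR alone differed by log2 0.13 (95% interval −0.11 to 0.38, adjusted p = 0.408).

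Irf1 (chr11:53770014-53778374) had a similar order of groups. Its lowest, median and highest normalized counts were 3639, 4211 and 5108 in untreated tumors, 3320, 4717 and 5926 with ADU-S100, 5032, 5914 and 6268 with anti-LTβR, and 3986, 5827 and 7551 with the combination. It was 1.34-fold higher in combination tumors (log2 0.42 ± 0.12 SE, adjusted p = 0.00758) and 1.33-fold higher with anti-LTβR (log2 0.41 ± 0.07, adjusted p = 0.00222). The combination tumors were the most spread, with a coefficient of variation of 20.3% against 7.97% for anti-LTβR. Combination tumors 4 and 8 had the lowest values of that group for both genes, at 4574 and 3986 for Irf1 and 1162 and 1146 for Irf8. The opposite-strand gene Gm17334 overlaps exons of Irf1, and whether the authors' counting used strand is not stated. Its mean was 149 normalized counts, far below that of Irf1.

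Irf5 (chr6:29526625-29541871) was higher in the combination than in each of the other groups. Its lowest, median and highest normalized counts were 517, 546 and 761 in untreated tumors, 497, 585 and 699.7 with ADU-S100, 571, 674 and 767 with anti-LTβR, and 648, 824 and 945 with the combination. The highest untreated tumor was exceeded by 5 of 8 combination tumors. The difference was 1.36-fold from untreated (log2 0.45 ± 0.10 SE, adjusted p = 0.00162), 1.37-fold from ADU-S100 (log2 0.46 ± 0.09, adjusted p = 0.000736) and 1.19-fold from anti-LTβR tumors (log2 0.26 ± 0.09, adjusted p = 0.0389). The last of these was lost among libraries above 14000000 reads (log2 0.12, adjusted p = 0.404). Exons of Tnpo3, on the opposite strand and at a mean of 1389 normalized counts, overlap Irf5, so reads may be shared if strand was not used.

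**Figure D2:**
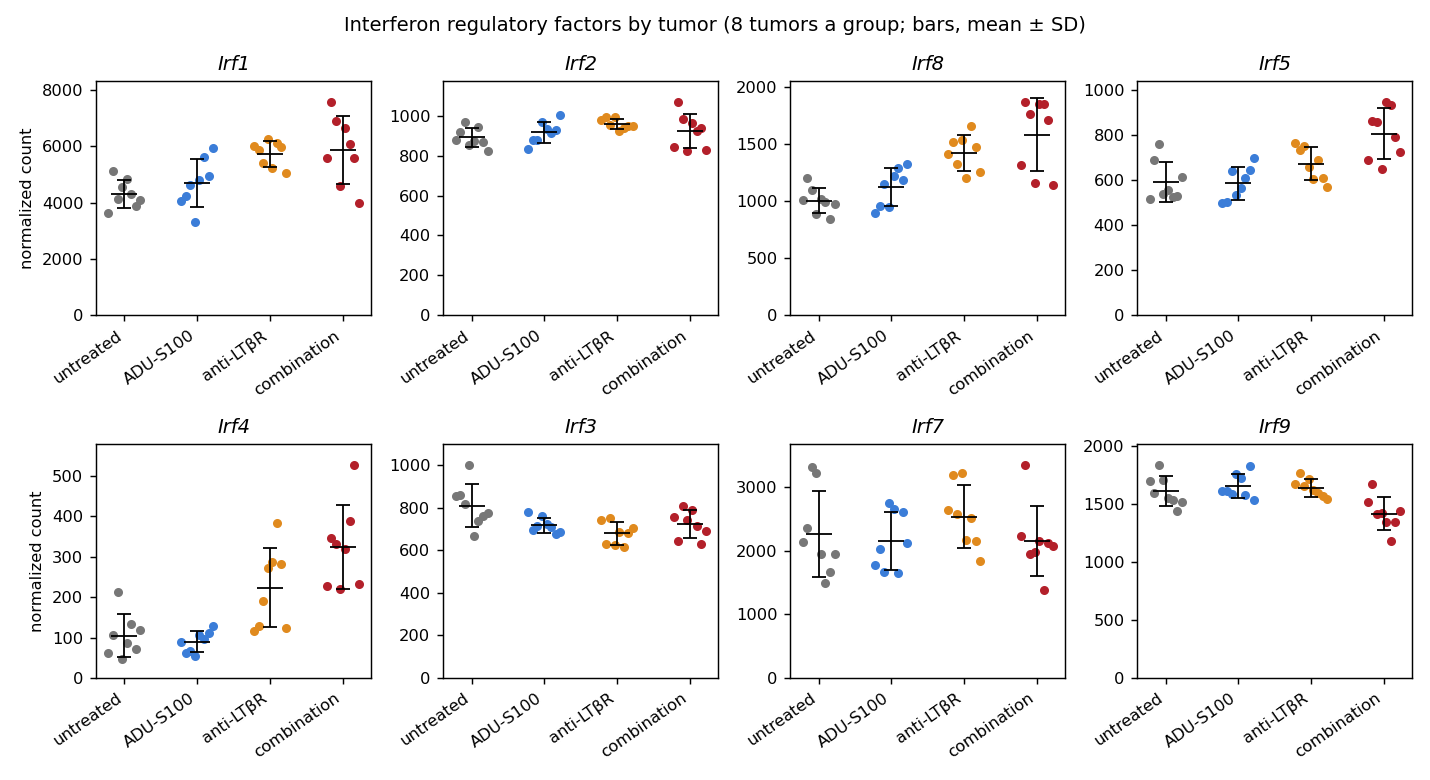
Normalized counts of the 8 genes in each tumor (points), with the mean and SD of 8 tumors (black bars), by group and with each axis starting at 0. The 8 combination tumors lie between 221 and 527 for Irf4, all above the untreated and ADU-S100 tumors, and most combination tumors lie below the others for Irf9.

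Irf9 (chr14:55603571-55610030) was lower in the combination. Its lowest, median and highest normalized counts were 1438, 1574 and 1836 in untreated tumors, 1533, 1611 and 1825 with ADU-S100, 1539.5, 1637 and 1767 with anti-LTβR, and 1182, 1421 and 1673 with the combination. In 6 of 8 combination tumors it was below every untreated tumor, and in 7 of 8 it was below every ADU-S100 and every anti-LTβR tumor. The log2 difference was −0.18 ± 0.06 (SE) from untreated (adjusted p = 0.0284), −0.22 ± 0.06 from ADU-S100 (adjusted p = 0.00502) and −0.22 ± 0.06 from anti-LTβR tumors (adjusted p = 0.0101). The first of these was −0.14 with an adjusted p of 0.106 among libraries above 14000000 reads. Rnf31, a ubiquitin ligase gene on the same strand at a mean of 893 normalized counts, shares annotated exon sequence with Irf9, and how the counting split such reads is not stated.

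Irf3 (chr7:44997648-45002848) was lower with anti-LTβR. Its lowest, median and highest normalized counts were 667, 796 and 999.7 in untreated tumors, 674, 712 and 777 with ADU-S100, 614, 683 and 752 with anti-LTβR, and 631, 729 and 809 with the combination. All groups overlapped, and 3 of 8 anti-LTβR tumors were below every untreated tumor. The log2 difference from untreated was −0.25 ± 0.07 (SE) for anti-LTβR (adjusted p = 0.0306), −0.17 ± 0.07 for ADU-S100 (adjusted p = 0.306) and −0.16 ± 0.08 for the combination (adjusted p = 0.0971). The anti-LTβR difference had an adjusted p of 0.0568 among libraries above 14000000 reads. Bcl2l12, on the opposite strand at a mean of 200.2 normalized counts, overlaps exons of Irf3.

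Irf7 (chr7:141262706-141266481) and Irf2 (chr8:46739732-46847458) did not pass the test in any comparison of groups. Irf7 had 1493, 2045 and 3308 normalized counts (lowest, median and highest) in untreated tumors, 1648, 2066 and 2739 with ADU-S100, 1834, 2542 and 3224 with anti-LTβR, and 1375, 2091 and 3342 with the combination. The log2 difference of combination from untreated tumors was −0.06 with a 95% interval of −0.43 to 0.32 (adjusted p = 0.818), so that changes of the size seen for Irf9 lie inside it. Irf2 varied little, at 825, 877 and 967 in untreated, 833, 921 and 1002 with ADU-S100, 925, 951 and 992 with anti-LTβR, and 822, 931 and 1067 with the combination. Its interval for combination against untreated tumors was −0.07 to 0.16 (log2 0.04, adjusted p = 0.539), and anti-LTβR tumors were log2 0.11 higher with an adjusted p of 0.0552. Phrf1, on the opposite strand at a mean of 1427 normalized counts, overlaps exons of Irf7.

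Anti-LTβR against untreated tumors gave 4 called members, Irf1, Irf4 and Irf8 higher and Irf3 lower, against 15.3% of 16691 genes tested, of which 7.21% were higher and 8.1% lower. Median differences were log2 0.19 over the members and 0.0030 over all genes. This comparison uses the same 8 untreated tumors as the one with the combination, so their values are not independent of each other.

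ADU-S100 against untreated tumors gave no called member and no called gene (0% of 16613 tested). Unadjusted limma p-values were under 0.05 for 2408 genes and for 1 member, Irf3. On recovered reads edgeR called 1 gene and DESeq2 57, none of them a member. The intervals bound what could be missed at day 14 after a single dose on day 0, at log2 −0.40 to 0.30 for Irf7, −0.11 to 0.33 for Irf1 and −0.70 to 0.42 for Irf4.

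Combination against anti-LTβR tumors called Irf5 higher and Irf9 lower, 2 of 8 members against 26.6% of 16932 genes. Over all genes this comparison had 1917 higher and 2587 lower calls, and on recovered reads with TMM scaling 2087 higher and 1743 lower, so the overall split depends on the table and scaling. Irf5 and Irf9 had the same directions on recovered reads. Combination against ADU-S100 tumors called Irf4, Irf5 and Irf8 higher and Irf9 lower, 4 of 8 members against 46.2% of 16811 genes. In that comparison Irf4 differed by 3.58-fold (log2 1.84 ± 0.20 SE, adjusted p = 1.10e-05) and Irf8 by 1.40-fold (log2 0.48 ± 0.12, adjusted p = 0.00465), whereas Irf1 missed the threshold (log2 0.31 ± 0.13, adjusted p = 0.0650).

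The interaction asks whether the effect of both agents on the log2 scale differs from the sum of their separate effects. It was called for Irf9 and Irf3, 2 of 8 members, against 18.4% of 17649 genes. Both calls were lost among libraries above 14000000 reads (limma adjusted p = 0.0812 for Irf9 and 0.105 for Irf3), and that of Irf3 also without a filter on low counts (0.0703). For Irf9 the interaction was −0.25 ± 0.08 (SE, adjusted p = 0.0192), with means of 1610 ± 129 normalized counts in untreated tumors (SD, n = 8), 1652 ± 103 with ADU-S100, 1641 ± 77.4 with anti-LTβR and 1418 ± 142 in combination tumors. The means with each agent alone lay within 1 SD of the untreated mean, and that with both lay below it by more than 1 SD. For Irf3 it was 0.25 ± 0.09 (adjusted p = 0.0476), with means of 809 ± 100.2, 717 ± 36.1, 679 ± 52.8 and 722 ± 64.6 in the same order. The Irf3 mean was thus below untreated with each single agent and not further below with both. For Irf4 the interaction was 0.74 (95% interval −0.04 to 1.53, adjusted p = 0.180) and for Irf5 0.26 (−0.0024 to 0.53, adjusted p = 0.160), neither past the threshold. Over all genes there were 1293 higher and 1947 lower interaction calls, against 1476 and 1399 by edgeR on recovered reads with size factors. Irf3 and Irf7 have no row in the table from which reads were recovered, and Irf3 rests on 1 table.

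**Figure D3:**
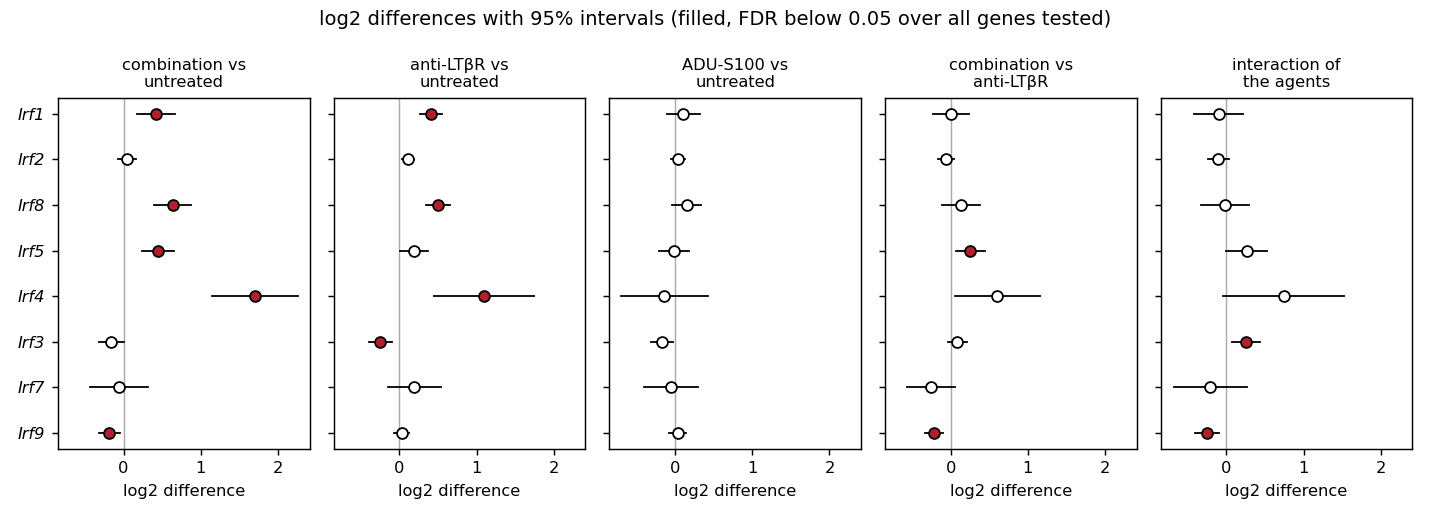
log2 differences of the 8 genes in 4 comparisons of groups and in the interaction of the agents, with 95% intervals (lines). Filled points passed an FDR of 0.05 over all genes tested. Irf4 lies furthest to the right in combination against untreated tumors at 1.70, and no point is filled for ADU-S100 against untreated tumors.

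Since 3 of 4 leukocyte markers were higher in the combination, members were also compared relative to Ptprc, the gene of the pan-leukocyte protein CD45, in the same library. Ptprc itself was higher in combination than in untreated tumors (log2 0.59 ± 0.09 SE, adjusted p = 0.000128). On this scale the median of all genes moved to −0.60 and 72.2% of genes were called, nearly all lower, so the members are read against that shift. Irf4 was higher relative to Ptprc (log2 1.11 ± 0.20, adjusted p = 8.51e-05). Irf8 (0.05, 95% interval −0.17 to 0.26), Irf5 (−0.14, −0.34 to 0.06) and Irf1 (−0.16, −0.42 to 0.09) were not distinguishable from Ptprc. Irf9 (−0.77), Irf3 (−0.75), Irf7 (−0.64) and Irf2 (−0.54) were lower relative to Ptprc and lay near the median of all genes. With the mean of all 4 leukocyte markers as the reference the median of all genes was −0.40, Irf8 was then higher (log2 0.25, adjusted p = 0.0171) and Irf1 and Irf5 lay at 0.04 and 0.06.

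Markers of cells that use these factors moved in the same comparison. In combination against untreated tumors 4 of 5 B cell markers were higher (summed level 77.7 to 266 untreated and 163 to 779 combination), as were 5 of 5 T cell markers (488 to 1266 and 1036 to 1954), 3 of 4 cDC1 markers (330.1 to 488 and 389 to 680.3), 1 of 4 cDC2 markers (2626 to 4424 and 4094 to 6783) and 3 of 5 macrophage markers (10083 to 18527 and 13824 to 20992). Of 3 plasma cell markers tested 2 were higher and Sdc1 was lower, and the fourth, Tnfrsf17, had a mean under 10 normalized counts in untreated and ADU-S100 tumors. Of 3 plasmacytoid dendritic cell markers tested 1 was higher, while Klk1 had a mean under 10 in all groups. Fibroblast markers rose in 4 of 4 (68115 to 109237 and 120766 to 435596), endothelial markers in 3 of 3 (998 to 1429 and 1705 to 2400.2), 1 of 4 neutrophil markers was higher (1849 to 6805 and 3233 to 18707) and 3 of 4 epithelial markers were lower. None of 3 natural killer cell markers passed the test (77.0 to 149 and 97.5 to 202), and of 3 mast cell markers 1 was higher and 2 lower (307 to 665 and 202 to 359). The part of these cell types in the differences of the members was not tested.

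Genes that carry signals to IRF3, IRF7 and IRF5 were described by lists. In the kinase route to IRF3 and IRF7 5 of 12 genes were higher and none lower in combination against untreated tumors (median log2 0.10), and 6 of 12 were higher with anti-LTβR (0.19). Of all genes 19.6% were higher with the combination and 7.21% with anti-LTβR, the shares beside which the counts of each list stand. Ikbke, which encodes the kinase IKKε, differed by log2 0.55 ± 0.10 (SE, adjusted p = 0.000543), Cgas, the DNA sensor that makes cGAMP, by 0.48 ± 0.10 (adjusted p = 0.00152) and Tbk1, the kinase of IRF3, by 0.20 ± 0.05 (adjusted p = 0.00287). In the endosomal TLR route 4 of 12 genes were higher and 1 lower with the combination (median 0.14), and 3 of 12 were higher with anti-LTβR. Tlr7, a sensor of single-stranded RNA, was higher by 0.62 ± 0.13 and Unc93b1, the chaperone that brings endosomal TLRs to their compartment, by 0.63 ± 0.13 (adjusted p = 0.000943 and 0.00109). Slc15a4, an endolysosomal transporter needed for IRF5 activation, was lower by −0.24 ± 0.06 (adjusted p = 0.00229).

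Of 20 interferon genes listed 7 had a row and only Ifng had enough reads to be tested between groups. Ifng, the gene of interferon-γ, had means of 40.9 ± 17.4 normalized counts in untreated tumors (SD, n = 8), 44.2 ± 11.3 with ADU-S100, 81.6 ± 15.5 with anti-LTβR and 107 ± 44.1 in combination tumors. It was higher by log2 1.34 ± 0.30 (SE) in combination (adjusted p = 0.00174) and by 1.06 ± 0.22 in anti-LTβR tumors (adjusted p = 0.00665) than in untreated ones. Ifnb1, the gene of interferon-β, was at 19.6 ± 21.9 in untreated, 15.9 ± 22.4 with ADU-S100, 13.99 ± 15.9 with anti-LTβR and 14.7 ± 21.1 in combination tumors, a spread as large as the mean. Among receptors, JAK kinases and the partners of IRF9, 8 of 11 genes were higher in combination (median log2 0.24) and 3 of 11 in anti-LTβR tumors (0.10), and none was lower.

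Stat2, the gene of a partner of IRF9, was higher than untreated by log2 0.24 ± 0.07 (SE, adjusted p = 0.00958) in the combination, where Irf9 was lower, and by 0.34 ± 0.06 (adjusted p = 0.0018) with anti-LTβR. Its interaction of the agents was −0.22 ± 0.10 (adjusted p = 0.103). Ifnar2, a chain of the type I interferon receptor, was higher by 0.40 ± 0.07 in the combination (adjusted p = 0.000167). Of 7 feedback inhibitors 2 were higher and none lower in the combination (median −0.05), namely Socs1, which blocks JAK kinases, by 0.69 ± 0.15 (adjusted p = 0.00144) and Ptpn6, the phosphatase SHP-1, by 0.44 ± 0.09 (adjusted p = 0.000969). Pias1, an inhibitor of STAT signaling, was at 0.12 ± 0.05 (adjusted p = 0.0944).

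Of 11 genes for the DNA-binding partners of IRF4 and IRF8, 6 were higher and 2 lower in combination against untreated tumors (median log2 0.46), and 4 were higher and 1 lower with anti-LTβR (0.11). Spi1, which encodes PU.1, was higher by 0.46 ± 0.10 (SE, adjusted p = 0.00109). Junb, a partner of BATF at AP-1 and IRF composite sites, was lower by −0.60 ± 0.11 (adjusted p = 0.000475), and Tcf3, the gene of E2A, by −0.36 ± 0.06 (adjusted p = 0.000229). Among relatives of the family, Irf2bpl and Irf2bp1, genes of the IRF2-binding protein family, were lower by −0.44 ± 0.07 and −0.26 ± 0.04 (adjusted p = 0.000124 and 0.000167), and Irf2bp2 was at −0.08 (adjusted p = 0.225).

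Genes that the factors act on differed by list. Of 10 genes known as IRF1 targets 7 were higher and none lower in combination against untreated tumors (median log2 0.34), and also 7 and none with anti-LTβR (0.42). Nos2, the inducible nitric oxide synthase, had means of 1083 ± 278 normalized counts in untreated (SD, n = 8), 1536 ± 397 with ADU-S100, 2717 ± 410.0 with anti-LTβR and 4075 ± 1160.4 in combination tumors, a 3.72-fold difference of combination from untreated tumors (adjusted p = 6.64e-06). Cd274, the gene of PD-L1, was higher by 0.76 ± 0.16 and Ciita, the activator of MHC class II genes, by 0.61 ± 0.14 (adjusted p = 0.00136 and 0.00244). Of 15 genes with ISREs that IRF3, IRF7 or IRF9 act on, 3 were higher and none lower in the combination (median 0.13), a share close to the 19.6% of all genes, and 5 of 15 with anti-LTβR (0.35), where 7.21% of all genes were higher. Those 3 were Ccl5 (1.80 ± 0.34, adjusted p = 0.00051) and Cxcl10 (0.77 ± 0.22, adjusted p = 0.00955), which encode chemokines, and Oasl2 (0.25 ± 0.09, adjusted p = 0.0437).

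Of 7 IRF8-dependent genes of dendritic cells and macrophages 4 were higher and 1 lower in combination (median log2 0.55), and 4 were higher with anti-LTβR (0.40). Cybb, a subunit of the phagocyte NADPH oxidase, was higher by 1.16 ± 0.17 (SE, adjusted p = 7.90e-05) and Wdfy4, needed for cross-presentation by cDC1, by 0.53 ± 0.11 (adjusted p = 0.00144). Cadm1, an adhesion molecule that epithelial cells also make, was lower by −0.72 ± 0.15 (adjusted p = 0.00111). Of 5 tested genes that depend on IRF4, Prdm1, the gene of the plasma cell factor BLIMP-1, was higher by 0.56 ± 0.15 (adjusted p = 0.00705). Sdc1, syndecan-1 of plasma cells and of epithelial cells, was lower by −0.42 ± 0.08 (adjusted p = 0.000623), with means of 18338 ± 1869.6 untreated and 13767 ± 1640.03 normalized counts with the combination (SD, n = 8). Xbp1, a factor of secretory cells, was at 0.20 ± 0.08 (adjusted p = 0.0721).

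**Figure D4:**
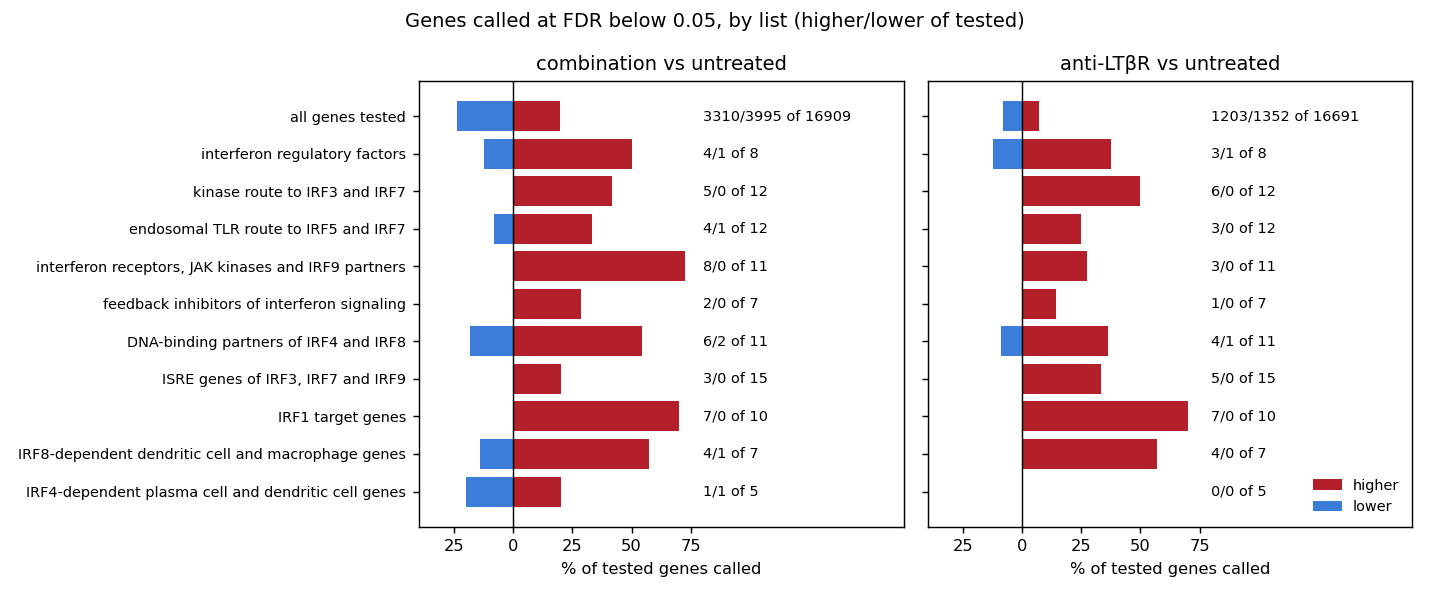
Share of tested genes called higher (right) or lower (left) at an FDR of 0.05 in combination and anti-LTβR against untreated tumors, for all genes and for 10 lists, with the counts printed as higher/lower of tested. The IRF1 target genes reach 7 of 10 in both comparisons, and the ISRE genes 3 of 15 and 5 of 15.

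With group means subtracted, some members varied together over the 32 tumors. Of 28 pairs of members 8 were past an FDR of 0.05 over the pairs, all positive. The test was a two-sided permutation test of Pearson's r within groups (100000 permutations). The share of pairs of other genes that would pass was not computed, so the count is not a trait of this family. Irf7 and Irf9 had r = 0.86 and Spearman's rho = 0.79 (permutation p = 1e-05, the smallest the permutations can give, for both, adjusted p of r = 9.33e-05), with r from 0.81 to 0.93 within the 4 groups. Irf1 and Irf8 had r = 0.83 and rho = 0.83 (permutation p = 1e-05 for both, adjusted p of r = 9.33e-05), with 0.47 to 0.89 within groups. Leaving out the 2 tumors farthest from the median of the first gene gave r = 0.81 for Irf7 and Irf9 and 0.80 for Irf1 and Irf8. The remaining 6 pairs joined Irf1, Irf2, Irf4, Irf5 and Irf8, at r = 0.75 for Irf5 and Irf8, 0.72 for Irf2 and Irf8, 0.60 for Irf2 and Irf5, 0.59 for Irf1 and Irf2, 0.58 for Irf1 and Irf5 and 0.54 for Irf4 and Irf8. Spearman's rho for these ran from 0.50 to 0.75 and permutation p-values of r from 1e-05 to 0.00475 (adjusted 9.33e-05 to 0.0166). Their r was positive within each group but could be uneven. For Irf1 and Irf2 it ran from 0.14 in untreated to 0.91 in combination tumors.

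For the 10 pairs of Irf7 or Irf9 with one of these 5 genes r ran from −0.10 for Irf4 and Irf9 to 0.39 for Irf2 and Irf7 (rho 0.38, permutation p of r = 0.0411, adjusted p = 0.0886), and none passed the threshold by r or by rho. Irf3 had its lowest r, −0.43, with Irf4 (rho −0.45, permutation p = 0.0272 and 0.0160). This pair missed the threshold by r (adjusted p = 0.0669) and passed it by rho (adjusted p = 0.0497), negative in each of the 4 groups, and without the 2 tumors farthest from the Irf3 median its r was −0.39. By rho 9 of 28 pairs thus passed, the 8 positive ones and this negative one. Tumors share the mix of cells in a library across all genes, and how far that mix sets these values was not tested. On recovered reads scaled to the library total (RPM), where 6 members have rows, 8 of 15 pairs were past the threshold.

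**Figure D5:**
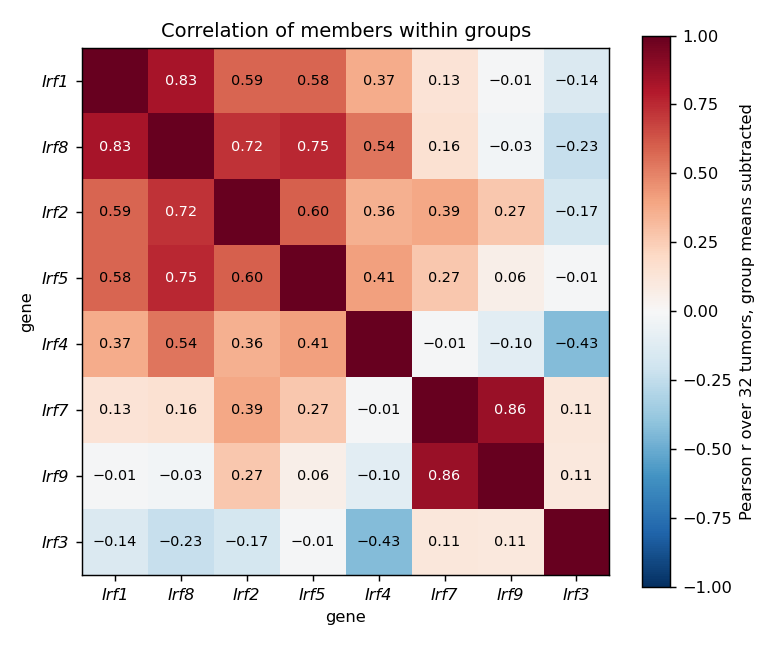
Pearson's r of each pair of the 8 genes over 32 tumors on log2(normalized count + 1) after subtracting group means (red positive, blue negative). Irf7 and Irf9 reach 0.86 and Irf1 and Irf8 0.83, and Irf3 is at or below 0.11 with every other gene.

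The genes most like each member were named by the highest Pearson's r over the same 32 tumors among 17648 other genes, as a description with no test. Irf7 lay nearest to Oas1a and Oasl1 (r = 0.95 and 0.94), genes of a 2′-5′-oligoadenylate synthetase and of a synthetase-like protein without that activity, and Irf9 nearest to Cmpk2 and Irf7 (0.86 and 0.86). Irf1 lay nearest to Gbp4, an interferon-induced GTPase, and Socs1 (0.90 and 0.88), and Irf8 to Slamf8, a surface protein of myeloid cells, and Gbp10 (0.85 and 0.85). Irf5 lay nearest to Unc93b1 and Tifab (0.90 and 0.87), Irf4 to Gas6 and Cmah (0.88 and 0.86), Irf2 to Cfb, complement factor B, and Il2rg (0.79 and 0.77), and Irf3 to Ric8a and Ilkap (0.77 and 0.76). For Irf3 the values were 0.61 and 0.60 without the 2 tumors farthest from its median, the largest loss among the 8 genes.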

How the data were processed

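Poly(A) RNA of single tumors was sequenced from libraries with a dUTP-marked second strand. The authors deposited a signal for 32 libraries, in which the reads of a gene are scaled by a size factor of the library, and a larger table of the same signal for 52 libraries. In the larger table each value is a whole multiple of what 1 read is worth (100% of values whole within 0.02), so whole reads were recovered, and in some libraries the step lies too close to 1 to be told from rounding. The submitters' processing notes list cutadapt 1.9, FastQC, HISAT2, StringTie, DESeq2, edgeR, STAR, Partek and the build mm39. According to the study, reads of mouse tumors were mapped by HISAT2 and assembled by StringTie, while its list of software gives alignment by STAR in Partek Flow, annotated to a human release, for bulk libraries. Neither route is tied to a table, although that of 32 libraries is named for Partek. Per-sample columns left unused number 0. A deposited table of the authors' gene set scores was not used. Positions printed are of GRCm38 (GENCODE for genes, RefSeq for promoters).

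limma 3.58.1 (R 4.3.3, trend test) was fitted on log2(value + 1) over genes past filterByExpr of edgeR 4.0.16 (count minimum 10), with the 16 libraries of each pair or all 32 for the interaction, and Benjamini-Hochberg adjustment over all genes tested. Alternatives were edgeR and DESeq2 1.42.0 on recovered reads, other scalings, filters and pseudocounts, only deeper libraries, a joint fit, a 2-fold threshold and the replicate number as a block. The tests were also run on simulated data for combination against untreated tumors. There limma recovered 200 of 200 changed genes with 13 false calls among 17018 genes, and edgeR 200 of 200 with 7 among 15768. Recovery was not tested separately for differences as small as those of most members. Correlations were computed with Python 3.11.15 and scipy 1.17.1.

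The members, gene lists, markers and tests were chosen with earlier results of these data known, and no list is independent evidence of its direction. From each list at most 3 genes are named with values, those with the smallest adjusted p in combination against untreated tumors. A second experiment of 20 libraries enters no comparison, since the labels of 15 contradict each other. Groups come from the labels, as do replicate numbers. The precision of a value depends on the spread between tumors and on read counting, and Irf4 has the fewest reads among the members. Some items are not reported here.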

Additional observations from a re-analysis of the deposited data

Results flagged for a closer look

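Irf7 in combination tumors stood out for 1 tumor. Its highest value, 3342 normalized counts in combination tumor 2, lay far from the 7 others (1375 to 2232) by a gap test that chance passes in about 1 of 20 groups. The effects of the agents on Irf9 were not additive on the log2 scale, with an interaction of −0.25 (adjusted p = 0.0192 by limma), and those on Irf3 were not either, with 0.25 (adjusted p = 0.0476 by limma). Both interactions missed the threshold among libraries above 14000000 recovered reads (adjusted p = 0.0812 for Irf9 and 0.105 for Irf3), and Irf3 also without a filter on low counts (0.0703).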

How the results depend on the processing

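Over the 8 members in all comparisons, 494 values were recomputed. Of these 463 kept their side of the threshold, 22 lost their call, 9 gained a call and 0 reversed direction with a call in either fit. Values called in neither fit count among the 463 whatever their direction. The 2-fold setting reuses the differences of the main fit. Irf4, Irf8, Irf5 and Irf1 stayed called higher in combination against untreated tumors under each alternative with an FDR threshold alone, at log2 1.63 to 1.71, 0.55 to 0.67, 0.35 to 0.47 and 0.38 to 0.46. With an FDR of 0.05 and at least 2-fold the genes called were 1034, 173, 357, 1038 and 540 in combination against untreated, anti-LTβR against untreated, combination against anti-LTβR, combination against ADU-S100 and the interaction, and the members called 1, 1, 0, 1 and 0. Among libraries above 14000000 recovered reads 1537 genes were called in anti-LTβR against untreated tumors, 1450 genes and 1 member in combination against anti-LTβR, 7 genes in ADU-S100 against untreated tumors, and 1568 genes and 0 members in the interaction, with fewer libraries in the fit. ADU-S100 against untreated tumors had 1 called gene by edgeR under each of 3 scalings and in the joint fit and 57 by DESeq2, and 0 members throughout. Without a filter 1 member was called in combination against anti-LTβR and 1 in the interaction. On recovered reads, where 6 members have rows, 1 member was called in the interaction by edgeR and DESeq2. In the joint fit Irf3 was called lower in combination against untreated tumors (adjusted p = 0.0388). On recovered reads Irf1 was called higher in combination against ADU-S100 tumors (adjusted p = 0.0244 to 0.0463). The cause of these changes was not tested. Leaving out single replicates was not planned for groups of 8.

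The replicate numbers do not pair the tumors, since the correlation of deviations of same-numbered tumors was over 0.1 in 2 to 6 of 8 pairs, depending on the comparison. With the replicate number as a block 1660 genes were called in anti-LTβR against untreated tumors and 2 in ADU-S100 against untreated tumors, and the other counts stayed within 1.5 times. A tumor correlated best with its own number in 1 to 3 of 8 cases. Under the block Irf3 missed the threshold with anti-LTβR (adjusted p = 0.0599) and Irf4 passed it in combination against anti-LTβR (0.0323). The block for levels relative to Ptprc, chosen after seeing the data, called 5 members.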

Other observations

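The 20 libraries of the second experiment were normalized together with the 32 in the larger table and are given as values only. In the 15 libraries whose labels contradict each other, Irf1 ran from 172 to 421 RPM, recovered reads scaled to the library total (median 252), Irf8 from 64.4 to 289.9 (89.5), Irf9 from 63.7 to 128 (108), Irf5 from 39.7 to 80.2 (58.3), Irf2 from 24.7 to 77.7 (52.1) and Irf4 from 2.69 to 31.0 (8.04). Of these 15, number 13 stood apart in scaling, with 1.38 normalized counts for each read against 0.779 to 0.944 in the other 14. It held the highest Irf8 and the lowest Irf9 and Irf2. Without it Irf8 ran from 64.4 to 146 RPM (median 88.8), Irf9 from 86.8 to 128 (108) and Irf2 from 42.9 to 77.7 (53.8), and the lowest and highest values of the other 3 genes were not those of this library. In the 5 libraries whose labels all name the combination, Irf1 ran from 144 to 486 RPM (median 262), Irf8 from 96.8 to 603 (131), Irf9 from 57.8 to 133 (105), Irf5 from 51.7 to 107 (69.4), Irf2 from 23.7 to 59.0 (48.0) and Irf4 from 1.26 to 24.7 (14.6). Of these 5, replicate 3 stood apart in depth, with 8716257 recovered reads against 18028314 to 18789131 in the other 4, and with 3.78 normalized counts for each read against 0.817 to 0.959. It held the highest Irf8 and Irf5 and the lowest Irf1, Irf9 and Irf4. Without it Irf8 ran from 96.8 to 146 RPM (median 129), Irf5 from 51.7 to 75.1 (61.9), Irf1 from 188 to 486 (284), Irf9 from 82.7 to 133 (116), Irf2 from 23.7 to 59.0 (50.2) and Irf4 from 4.58 to 24.7 (15.0).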
